A study of Homo sapiens with 61 samples.

Results

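NR4A1, NR4A2 and NR4A3 are the 3 genes of the NR4A family, among 19970 protein-coding genes whose promoters were examined in the H3K4me3 and XPC peak lists. The family was chosen by the irradiated minus unirradiated difference in promoter H3K4me3, in which NR4A1 had stood out in earlier results. That difference is therefore given as a description with no test. All 3 promoters carried H3K4me3 peaks in at least 3 libraries, as did 14745 promoters in all.

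NR4A genes encode orphan nuclear receptors, which are transcription factors without a known natural ligand that bind DNA as monomers, as dimers of the family or with a retinoid X receptor. NR4A1 (Nur77), NR4A2 (Nurr1) and NR4A3 (NOR1) are immediate early genes, transcribed within minutes of growth factors, stress or DNA damage from promoters that are held ready in resting cells. Trimethylation of lysine 4 of histone H3 (H3K4me3) marks the promoters of active and poised genes, and a broader domain of the mark reaches from the promoter into the gene.

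The cells were U2OS, a human osteosarcoma line. ASH1L-/- cells, which lacked the histone methyltransferase ASH1L after CRISPR/Cas9 deletion and were grown from isolated colonies, were set against wild-type cells (WT). Each genotype was collected unchallenged (no UV) or left for 1 h or 3 h following UV-C irradiation at 20 J/m2, and chromatin was immunoprecipitated for H3K4me3 or for XPC, the damage sensor of global-genome nucleotide excision repair. There were 3 libraries for each genotype at each time, called biological replicates by the labels, except XPC in unchallenged WT cells with 4. An effect of the deletion cannot be told apart from other features of the colony that was grown, and the p-values below measure only the spread between these libraries. A list of peaks also does not separate more marked cells from more mark per cell.

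Each H3K4me3 list held between 72984 and 142688 peaks, which covered 70.1 to 132 Mb. At 3 h the lists covered 82.6 to 108 Mb in ASH1L-/- cells and 97.2 to 132 Mb in WT cells, whereas the promoter windows together held 35.0 to 35.4 Mb in ASH1L-/- and 34.3 to 36.3 Mb in WT. The peak lists carry no read counts, and read depth was not compared between groups here. Of 8 mesenchymal and osteoblast markers, RUNX2, PRRX1, COL1A1 and VIM had a promoter peak in 18 of 18 libraries, and TWIST1, COL1A2, SP7 and ALPL in 0. Of the markers of other cell types given here, KRT5 had one in 4 libraries and APOA1 in 16, while KRT14, TP63, PTPRC, CD3E and ALB had none.

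All coordinates are hg38. NR4A1 (ENSG00000123358.20) lies on the plus strand of chromosome 12, from 52051442 to 52059503, with 7 exons in its MANE transcript. NR4A2 (ENSG00000153234.16) lies on the minus strand of chromosome 2, from 156324437 to 156332721, with 8 exons. NR4A3 (ENSG00000119508.18) lies on the plus strand of chromosome 9, from 99821885 to 99866891, also with 8 exons, and is 45.007 kb long against 8.06 kb for NR4A1 and 8.29 kb for NR4A2. The promoter window was the 4 kb centred on the start of that transcript, namely chr12:52049443-52053442, chr2:156330722-156334721 and chr9:99819886-99823885. Its covered length, in kb under called peaks, was the main measure.

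RefSeq promoters, from 250 bases before to 50 after a start site, matched 2 of the 3 genes. NR4A3 is shown at the start used here, because its window was the most fully covered of the 3, and NR4A1 at an upstream start at -13.73 kb from the one used here, because the mark there differed between genotypes in opposite directions before and after UV. Capitals mark TGACG on either strand (CGTCA when read on the other strand), which is the core of the binding site of CREB and related factors.
NR4A3, chr9:99821635-99821934, plus strand, RefSeq GRCh38.p14: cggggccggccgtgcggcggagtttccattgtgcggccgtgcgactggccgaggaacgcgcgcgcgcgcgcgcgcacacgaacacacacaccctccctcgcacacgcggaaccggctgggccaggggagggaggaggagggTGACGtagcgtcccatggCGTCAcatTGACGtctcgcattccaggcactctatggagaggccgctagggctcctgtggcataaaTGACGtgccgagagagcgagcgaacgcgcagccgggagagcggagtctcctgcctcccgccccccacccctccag
NR4A1, chr12:52037465-52037764, plus strand, RefSeq GRCh38.p14: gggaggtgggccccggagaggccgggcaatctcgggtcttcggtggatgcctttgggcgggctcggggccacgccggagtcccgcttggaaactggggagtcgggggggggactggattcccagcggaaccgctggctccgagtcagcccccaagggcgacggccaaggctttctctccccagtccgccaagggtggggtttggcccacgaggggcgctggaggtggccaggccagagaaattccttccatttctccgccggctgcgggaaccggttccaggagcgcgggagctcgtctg
The NR4A3 promoter held 4 matches of TGACG on either strand, a motif that 24.6% of 35116 promoters of this length hold at least once, and the NR4A1 stretch held none. The complete palindrome TGACGTCA, held by 1.85% of promoters, was in neither. Nor was the monomer site of the NR4A receptors themselves (AAAGGTCA, both strands, 1.22% of promoters).

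Before UV the 3 promoters were marked to different extents. In unchallenged ASH1L-/- cells the NR4A1 window was covered over 1.78 ± 0.0824 kb, NR4A2 over 3.14 ± 0.0165 kb and NR4A3 over 3.79 ± 0.0540 kb, and in unchallenged WT cells over 1.59 ± 0.113 kb, 3.19 ± 0.0857 kb and 4 kb (mean ± SD, n = 3 libraries each). The order NR4A3, NR4A2, NR4A1 held in each of the 6 unchallenged libraries, in which the ranges of the 3 genes did not overlap. NR4A2 thus had less room for a wider mark within its window than NR4A1, and NR4A3 was at its ceiling of 4 kb in 9 of 9 WT libraries. The map of peaks drawn across the genes shows how far each mark reached beyond the window.

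**Figure D1:**
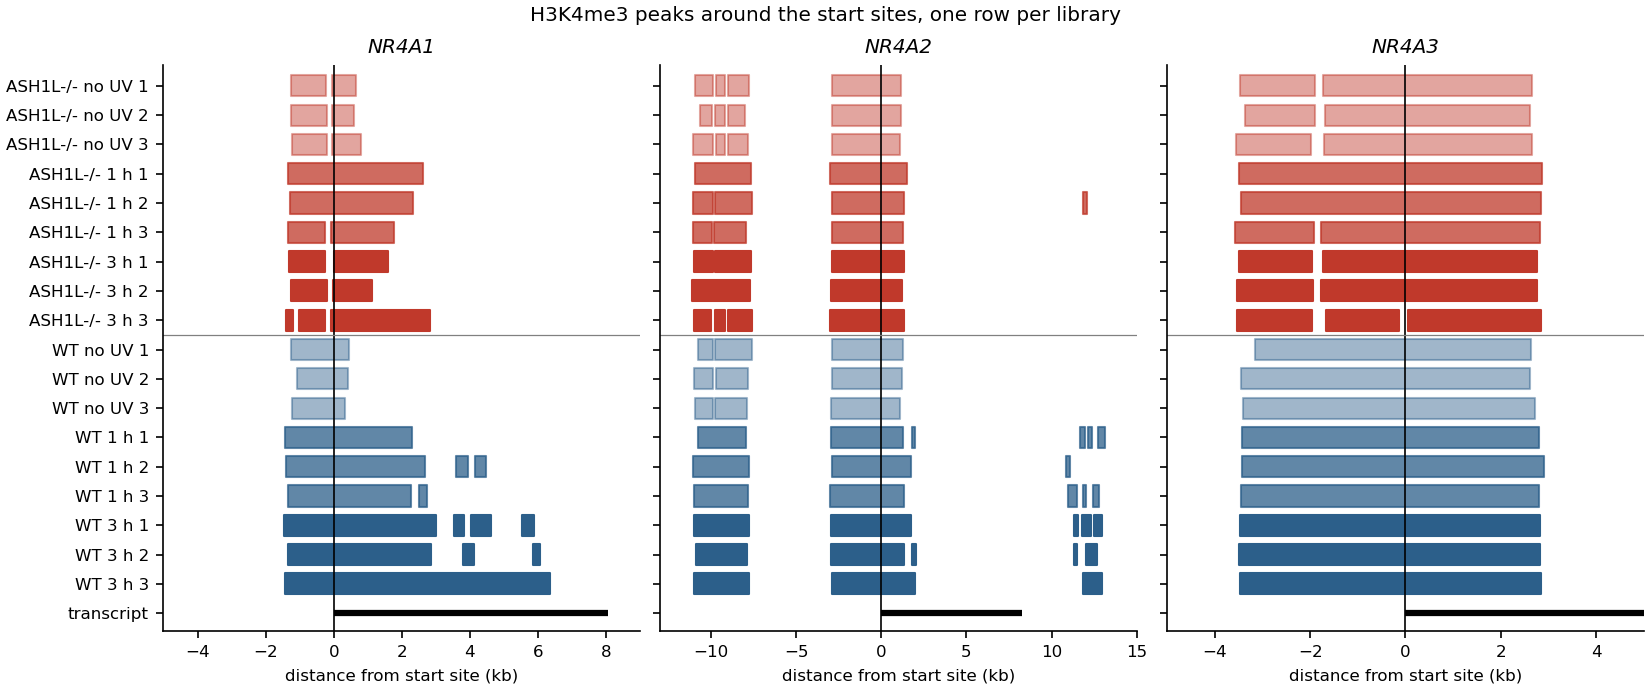
H3K4me3 peaks (bars) around NR4A1, NR4A2 and NR4A3 in each of the 18 libraries, drawn against distance from the start site in kb along the direction of transcription, with the gene beneath. The NR4A1 mark ends within 0.794 kb downstream of the start in unchallenged libraries of both genotypes and reaches 6.34 kb in 1 WT library at 3 h.

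NR4A1, which encodes Nur77, had the widest difference after UV. In ASH1L-/- cells its promoter was covered over 1.74, 1.72 and 1.87 kb with no UV, 3.34, 3.29 and 2.90 kb at 1 h, and 2.65, 2.196 and 3.06 kb at 3 h. In WT cells the values were 1.71, 1.497 and 1.55 kb with no UV, 3.45, 3.39 and 3.35 kb at 1 h, and 3.45, 3.35 and 3.44 kb at 3 h. Every irradiated library of either genotype was above every unchallenged library, and at 3 h the highest ASH1L-/- library was below the lowest WT library. Irradiated minus unirradiated, the NR4A1 promoter differed by 1.13 ± 0.138 kb in ASH1L-/- and by 1.82 ± 0.138 kb in WT cells (± SE, limma), the 19th and the 5th widest of 14745 promoters, against a median over all promoters of 0.174 kb and 0.203 kb.

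At 3 h the NR4A1 promoter was lower in ASH1L-/- than in WT cells, with a difference of -0.777 ± 0.159 kb (adjusted p = 0.00583, limma over all promoters with Benjamini-Hochberg adjustment). With no UV the difference was 0.192 ± 0.159 kb (adjusted p = 0.565) and at 1 h it was -0.219 ± 0.159 kb (adjusted p = 0.544). The interaction, that is the irradiated minus unirradiated difference in ASH1L-/- less that in WT cells, was -0.690 ± 0.195 kb and did not pass (adjusted p = 0.121), although it did without ASH1L-/- replicate 3 at 3 h (-0.796 kb, adjusted p = 0.0321). Between the irradiated times, 3 h minus 1 h, NR4A1 differed by -0.542 ± 0.159 kb in ASH1L-/- (adjusted p = 0.112) and by 0.0163 ± 0.159 kb in WT cells (adjusted p = 1). The ASH1L-/- value passed without replicate 3 at 1 h (-0.679 kb, adjusted p = 0.0451) or without replicate 3 at 3 h (-0.753 kb, adjusted p = 0.0280).

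NR4A2, which encodes Nurr1, was already marked over most of its window. In ASH1L-/- cells the covered lengths were 3.14, 3.16 and 3.13 kb with no UV, 3.49, 3.31 and 3.27 kb at 1 h, and 3.32, 3.20 and 3.36 kb at 3 h. In WT cells they were 3.27, 3.20 and 3.10 kb with no UV, 3.49, 3.74 and 3.32 kb at 1 h, and 3.76, 3.58 and 4 kb at 3 h. At 3 h all WT libraries lay above all ASH1L-/- libraries, and at 1 h the genotypes overlapped. Irradiated minus unirradiated, NR4A2 differed by 0.180 kb in ASH1L-/- and 0.458 kb in WT cells. Once every library was scaled to the same total over all promoter windows, the ASH1L-/- value turned to -0.0947 kb while the WT value shrank to 0.0947 kb.

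The NR4A2 promoter at 3 h was lower in ASH1L-/- than in WT cells, with a difference of -0.487 ± 0.110 kb (adjusted p = 0.01005, limma). The difference was -0.0470 kb with no UV (adjusted p = 0.878) and -0.163 kb at 1 h (adjusted p = 0.509), and the interaction was -0.278 ± 0.135 kb (adjusted p = 0.419). The difference at 3 h did not pass with peaks of at least 5-fold enrichment alone or with an equal number of peaks per library (-0.413 kb each, adjusted p = 0.0666 and 0.0634).

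NR4A3, which encodes NOR1, filled its window in all 9 WT libraries. In ASH1L-/- cells the covered lengths were 3.84, 3.80 and 3.73 kb with no UV, 4, 4 and 3.85 kb at 1 h, and 3.78, 3.83 and 3.53 kb at 3 h. Irradiated minus unirradiated, NR4A3 differed by 0.0422 kb in ASH1L-/- and 0 kb in WT cells, and after scaling to the same total by -0.285 and -0.434 kb. As the WT windows were full in every library, the scaled WT value reflects only the library totals and shows no loss of mark. At 3 h NR4A3 was lower in ASH1L-/- than in WT cells, with a difference of -0.285 ± 0.0647 kb (adjusted p = 0.009995, limma), with -0.209 kb before UV (adjusted p = 0.0869) and -0.0490 kb at 1 h (adjusted p = 0.774). The 9 WT libraries had no spread and entered the pooled SE, which thus understates the spread of the ASH1L-/- libraries at 3 h. The missing length lay inside the block of peaks and not at its ends, and with gaps of up to 500 bp filled the difference at 3 h was 0 kb (adjusted p = 1). The call was also lost once libraries were scaled to the same total (-0.253 kb, adjusted p = 0.134).

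**Figure D2:**
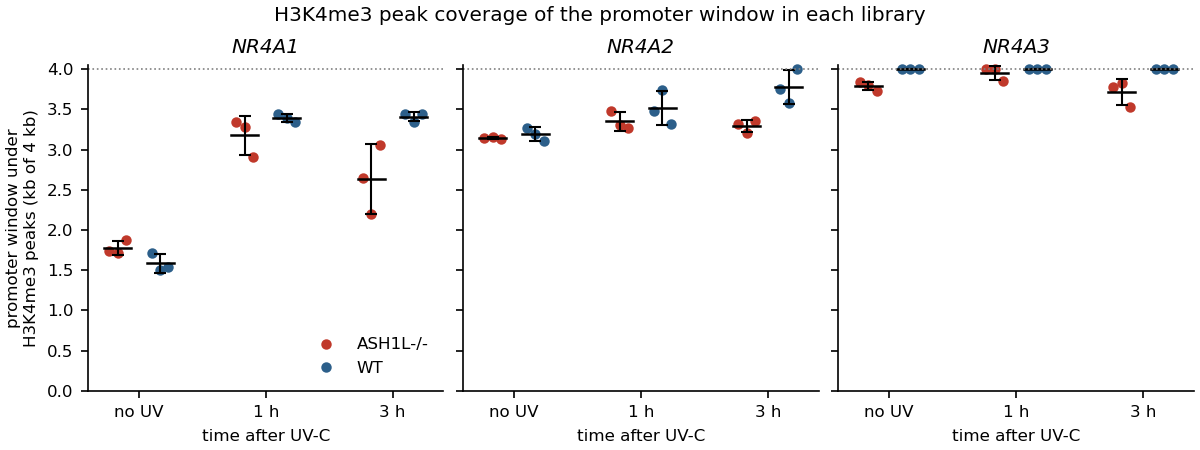
Kb of the 4 kb promoter window covered by H3K4me3 peaks at each gene by time after UV-C, in ASH1L-/- and WT cells (each point is a library, and lines give the mean ± SD of 3). NR4A1 lies at 1.87 kb or less in all unchallenged libraries and at 2.196 kb or more in all irradiated ones, and at 3 h the ASH1L-/- libraries of each gene lie below the WT libraries.

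The promoters of 3 of 3 NR4A genes thus passed as lower in ASH1L-/- cells at 3 h, where 14.4% of all promoters passed in either direction and 7.36% as lower. At the other contrasts no NR4A promoter passed, with 3.98% of promoters passing for ASH1L-/- minus WT with no UV, 4.17% at 1 h, 1.06% for the interaction, and 0.807% for 3 h minus 1 h in ASH1L-/- and 0.305% in WT cells. The middle 90% of promoters at 3 h lay between -0.510 and 0.432 kb with a median of 0 kb, so NR4A1 lay below that range and NR4A2 and NR4A3 inside it. The genotype values share their libraries with the UV differences that brought the family to attention. A high WT value at 3 h was favoured by that choice, so the count of 3 of 3 is a description and not evidence about the family. With gaps between peaks of up to 500 bp filled, NR4A2 alone kept its call, as given below.

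**Figure D3:**
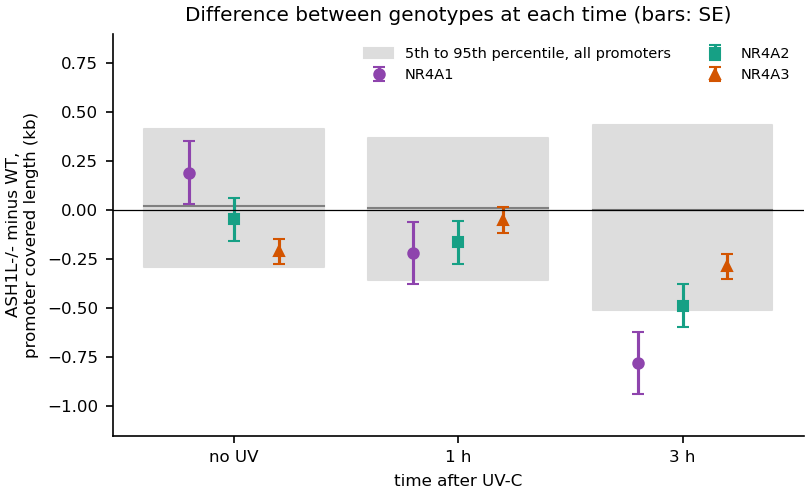
ASH1L-/- minus WT difference of promoter H3K4me3 coverage in kb (points, ± SE from limma) for each gene with no UV and at 1 h and 3 h, with the 5th to 95th percentile of all 14745 promoters as a band. The NR4A1 value at 3 h, -0.777 kb, lies below the band, and the values with no UV lie within it.

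The direction in which the mark widened was read from the block of peaks at the start, with peaks joined over gaps of up to 500 bp. At NR4A1 the downstream edge lay 0.666, 0.595 and 0.794 kb past the start in unchallenged ASH1L-/- cells, 2.64, 2.32 and 1.76 kb at 1 h and 1.60, 1.13 and 2.83 kb at 3 h. In WT cells it lay at 0.458, 0.421 and 0.324 kb with no UV, 2.30, 2.68 and 2.73 kb at 1 h and 3.01, 2.86 and 6.34 kb at 3 h. The upstream edge stayed between 1.08 and 1.45 kb before the start in all 18 libraries. Set against the unchallenged mean, the mean downstream extension was 1.55 kb at 1 h and 1.17 kb at 3 h in ASH1L-/-, and 2.17 and 3.67 kb in WT cells, against upstream extensions of 0.0813 and 0.0793 kb in ASH1L-/- and 0.211 and 0.227 kb in WT. The NR4A1 block therefore widened along the direction of transcription, past exon 1, which ends at 0.126 kb and was covered before UV. In 2 WT libraries at 3 h the block passed 2.89 kb, where exon 2 begins. In WT replicate 2 the block stopped short of that point, but separate peaks past it covered 0.681 kb at 1 h and 0.542 kb at 3 h. Irradiated minus unirradiated, the stretch from 2 to 20 kb upstream differed by 0.114 kb in ASH1L-/- and 1.66 kb in WT cells. The stretch from 2 to 20 kb downstream differed by 0.297 and 1.69 kb. In WT cells the flanks thus gained about as much on either side.

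The NR4A2 block widened in the same direction as the NR4A1 block, on a smaller scale. Its downstream edge averaged 1.14 ± 0.0165, 1.35 ± 0.116 and 1.29 ± 0.0802 kb in ASH1L-/- cells at no UV, 1 h and 3 h, and 1.19 ± 0.0857, 1.45 ± 0.257 and 1.93 ± 0.145 kb in WT cells (SD, n = 3). In WT cells at 3 h 2 of the 3 edges, at 2.01 kb each, lay past the start of exon 2 at 1.93 kb, and no ASH1L-/- edge came that far. With peaks not joined, the edge of WT replicate 2 at 3 h lay at 1.36 kb, short of exon 2. The upstream edge of NR4A2 lay 2.87 to 3.01 kb before the start throughout. At NR4A3, by contrast, the downstream extension was 0.198 and 0.141 kb in ASH1L-/- and 0.172 and 0.173 kb in WT cells, beside upstream extensions of 0.0417 to 0.135 kb, so neither side was far from the other.

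Over all times, the mean length of the NR4A1 block was 2.89 kb in ASH1L-/- and 3.68 kb in WT cells and its downstream edge 1.59 and 2.35 kb past the start, differences of -0.791 kb (exact permutation p = 0.119, adjusted p = 0.230) and -0.757 kb (exact p = 0.123, adjusted p = 0.230). The NR4A2 block differed by -0.270 kb in length (exact p = 0.0153) and by -0.258 kb in downstream edge (exact p = 0.0238), and both missed the threshold after adjustment over 15 such values (adjusted p = 0.0819 each). The stretch from 2 to 20 kb past the start, without the promoters of other genes, held 0.198 kb of H3K4me3 in ASH1L-/- and 1.13 kb in WT cells at NR4A1 (exact p = 0.0250, adjusted p = 0.0819) and 0.0284 and 0.603 kb at NR4A2 (exact p = 0.01, adjusted p = 0.0819). These two-sided tests exchanged genotypes within each time, over 9 libraries per genotype, and the adjusted p of all 15 values was 0.0819 or more. At NR4A2 most of that downstream length lay past the end of the gene, between 10.9 and 13.1 kb from the start, where 6 of 6 irradiated WT libraries, 1 of 6 irradiated ASH1L-/- libraries and 0 of 3 unchallenged libraries of each genotype had a peak. These peaks were low, with a highest fold enrichment over input of 2.31 in the ASH1L-/- library and 2.72 to 4.11 in the WT libraries, and they were noticed after the values were seen.

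**Figure D4:**
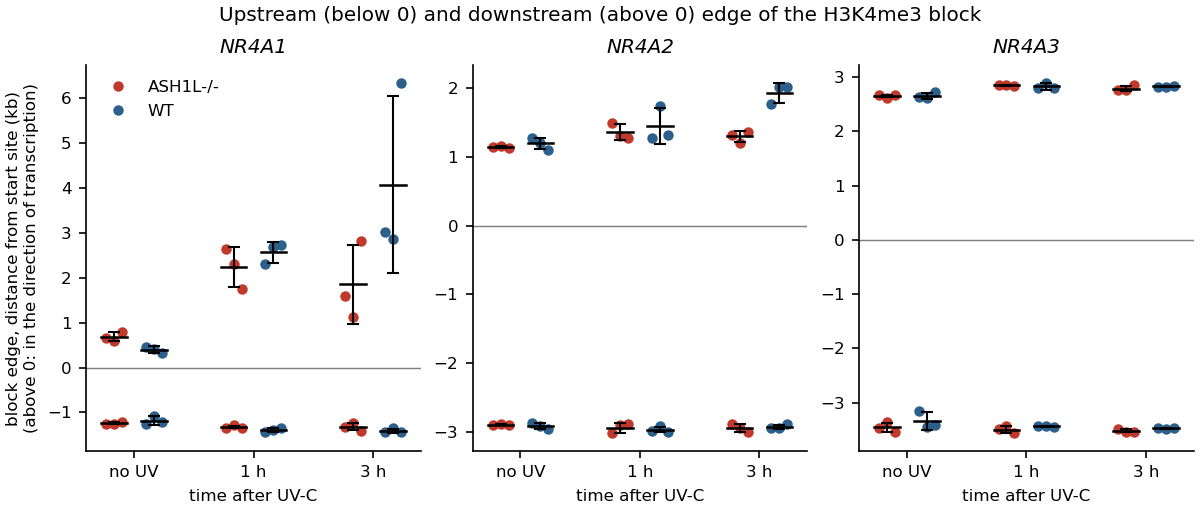
Distance in kb from the start site to the upstream and downstream edge of the H3K4me3 block (peaks joined over gaps of up to 500 bp) at each gene, by time after UV-C in ASH1L-/- and WT cells (points are libraries). The downstream edge of NR4A1 lies at 0.595 to 0.794 kb in unchallenged ASH1L-/- and 0.324 to 0.458 kb in unchallenged WT libraries and at 1.13 kb or more in all irradiated ones, while its upstream edge moves little.

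From 2 kb past the start to its end, the rest of the NR4A1 gene carried no H3K4me3 peak in any unchallenged library. In ASH1L-/- cells peaks covered 10.5, 5.20 and 0% of it at 1 h and 0, 0 and 13.6% at 3 h, and in WT cells 5.00, 22.5 and 8.17% at 1 h and 37.1, 23.2 and 71.6% at 3 h. All WT libraries at 3 h lay above all ASH1L-/- libraries. NR4A1 was lower in ASH1L-/- cells at 3 h, with a difference of -39.4 ± 8.77 percentage points (adjusted p = 0.00656, limma over 12094 gene bodies), at which time 19.5% of gene bodies passed. The SE pools the spread of all groups in the fit, and the unchallenged groups, at 0% in every library, had none. The WT libraries at 3 h spread widely, so the SE and p understate the spread in this comparison. Without WT replicate 3 at 3 h the difference was -25.6 points and still passed (adjusted p = 0.00761). The NR4A1 body differed by -6.64 points at 1 h (adjusted p = 0.743, 5.50% of bodies passing), by 0 with no UV (0.786% passing) and by -23.0 ± 10.7 points in the interaction (adjusted p = 0.305, 3.86% passing). These body values share their libraries with the UV difference by which the family was chosen. A high WT value at 3 h may have been favoured by that choice here too, so the call at 3 h is not independent of it.

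An internal start site of NR4A1, 5.16 kb past the one used here, lies within this body. Its 4 kb window was free of H3K4me3 in all 9 ASH1L-/- libraries and in unchallenged WT cells, and it held 0.681 kb in 1 WT library at 1 h and 1.24, 0.542 and 3.18 kb in the WT libraries at 3 h. The NR4A2 body was marked in only 2 WT libraries at 3 h, by at most 0.013 kb, and was not tested. The NR4A3 body was covered over 1.97 to 3.87% in ASH1L-/- and 1.47 to 3.63% in WT libraries and differed by -0.170 ± 0.579 points at 3 h (adjusted p = 0.883).

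NR4A1 also has annotated starts upstream. Around those at -14.27 to -13.73 kb, where the second printed sequence lies, H3K4me3 covered 2.72, 2.45 and 2.61 kb in unchallenged ASH1L-/- cells against 1.79, 1.59 and 1.79 kb in unchallenged WT cells. At 3 h the values there were 2.496, 2.39 and 2.59 kb in ASH1L-/- and 3.02, 2.74 and 2.75 kb in WT cells. The genotypes did not overlap at either time, in opposite directions, while at 1 h they did overlap, with 2.57, 3.05 and 2.59 kb in ASH1L-/- and 2.60, 3.12 and 2.53 kb in WT. These values were picked out after they were seen and were not tested, and the smallest exact p for 3 libraries against 3 is 0.1.

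ATG101, an autophagy gene whose start lies 18.5 kb past that of NR4A1, is its only protein-coding neighbour within 20 kb. Its promoter differed by -0.196 ± 0.0905 kb at 3 h, ASH1L-/- minus WT (adjusted p = 0.163). In the 5 Mb bin that holds NR4A1, peaks covered 287 to 309 kb in ASH1L-/- and 324 to 395 kb in WT libraries at 3 h. Over the whole genome the lists at 3 h covered 82.6 to 108 Mb in ASH1L-/- and 97.2 to 132 Mb in WT cells. The bin was thus not shown to differ apart from the genome, and its part in the NR4A1 difference was not tested. With libraries scaled to the same total over all promoter windows, the NR4A1 promoter difference at 3 h still passed (-0.741 kb, adjusted p = 0.00273, limma). With libraries scaled to the same summed share over all gene bodies, the body difference passed too (-33.1 points, adjusted p = 0.00278, limma). Neither scaling equalised the total length under all peaks of a library.

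The height of the mark was read from the highest fold enrichment over input of any peak at the promoter, a value that describes 1 library against its control. At NR4A1 it was 4.39, 4.71 and 4.80 in unchallenged ASH1L-/- cells, 10.0, 8.93 and 5.88 at 1 h and 3.92, 4.24 and 7.56 at 3 h. In WT cells it was 5.61, 4.30 and 7.07 with no UV, 8.94, 12.7 and 7.80 at 1 h and 9.76, 12.4 and 14.3 at 3 h. At 3 h 2 of the 3 ASH1L-/- libraries were thus below every unchallenged one, while all WT libraries were above every unchallenged one. At NR4A2 the highest enrichment at 3 h was 8.51, 7.76 and 8.90 in ASH1L-/- and 21.1, 11.3 and 17.5 in WT cells, and at NR4A3 7.97, 5.95 and 8.99 against 12.6, 9.83 and 10.2. The genotypes did not overlap at 3 h at any of the 3 genes, and they overlapped at 1 h at each of them. No test across all promoters was made of these heights. Promoter length under peaks of at least 5-fold enrichment was compared over 13373 promoters (ASH1L-/- minus WT, limma, adjusted p under 0.05). At 3 h 2155 were lower and 465 higher in ASH1L-/- cells, and at 1 h 58 were lower and 62 higher. The separation at 3 h was thus not shown to be particular to the family.

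**Figure D5:**
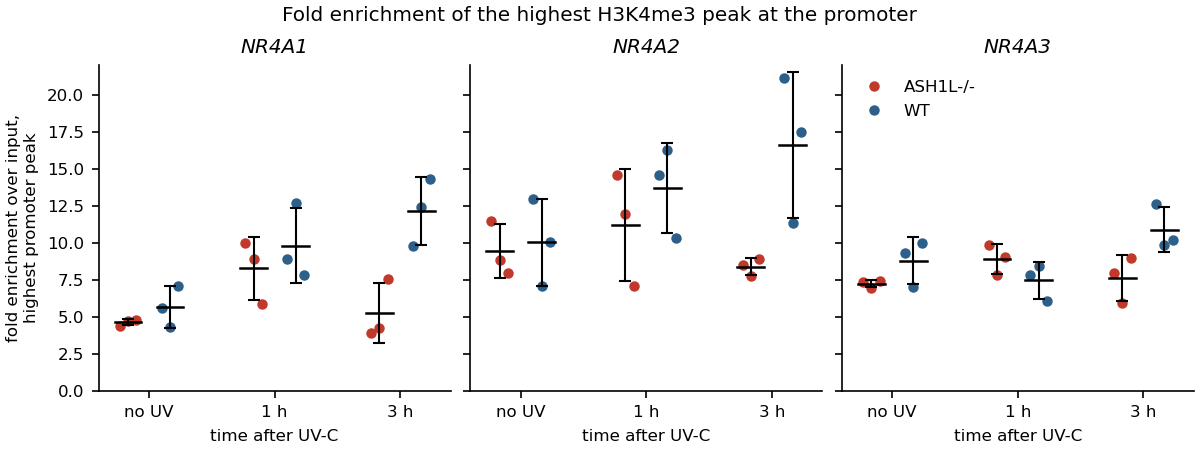
Fold enrichment over input of the highest H3K4me3 peak at each promoter by time after UV-C in ASH1L-/- and WT cells (each point is a library, and lines give the mean ± SD of 3). At 3 h the WT libraries lie above the ASH1L-/- libraries at all 3 genes, with 9.76 to 14.3 against 3.92 to 7.56 at NR4A1.

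In 7 of 9 ASH1L-/- libraries and 0 of 9 WT libraries the peak at the NR4A1 promoter was split, by a gap of 0.134 to 0.271 kb that ended within 0.1 kb of the start. The same 7 libraries, all but replicates 1 and 2 at 1 h, had a gap of 0.147 to 0.277 kb in the NR4A3 block, between 1.97 and 1.67 kb before the start. Promoters split in this way, in at least 7 ASH1L-/- and in no WT library, made up 0.183% of all tested, 27 of 14745. The part of the NR4A3 gap shared by these libraries is shown because it was rich in G and C, which made up 79.3% of the stretch against 58.3% of the 4 kb window.
NR4A3 gap, chr9:99819990-99820105, plus strand, hg38: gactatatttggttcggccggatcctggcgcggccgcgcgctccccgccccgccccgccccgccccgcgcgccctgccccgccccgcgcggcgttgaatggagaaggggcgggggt
The split was noticed after the values were seen and is given without a test. Splitting was common in those libraries, in which 31.9 to 39.8% of tested promoters held 2 or more peaks, against 13.1 to 38.5% in the other 11. With gaps of up to 500 bp filled, the difference at 3 h was -0.512 kb at NR4A1 (adjusted p = 0.0639) and -0.626 kb at NR4A2 (adjusted p = 0.00147), beside 0 kb at NR4A3. The gaps thus supplied all of the NR4A3 difference and part of that at the NR4A1 promoter, and the part of base composition was not tested.

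Other immediate early genes, further nuclear receptors and known regulators and partners of the NR4A genes were set beside the family. At 3 h 11 of 37 other early response genes passed, all as lower in ASH1L-/- cells, where 7.36% of all promoters were lower. Their median was -0.224 kb, against 0 kb over all promoters. DUSP4, a phosphatase of MAP kinases, was lower in ASH1L-/- than in WT cells by 0.974 ± 0.267 kb (adjusted p = 0.0251, limma). EGR4, a zinc-finger transcription factor, was lower by 0.706 ± 0.221 kb (adjusted p = 0.0444). Of 35 other nuclear receptors tested, of 45 listed, 3 passed at 3 h, all as lower (median -0.0333 kb), among them NR1D1 (REV-ERB alpha, -0.533 kb) and ESR1 (oestrogen receptor alpha, -0.497 kb). Of 15 regulators and partners of the NR4A genes tested, 1 passed at 3 h. This was MEF2C, from a family of transcription factors that regulate NR4A1 in T cells, which was higher in ASH1L-/- cells by 0.556 ± 0.106 kb (adjusted p = 0.00373). The lists were drawn up with earlier results of these data known.

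After UV, 5 of the 37 early response promoters were higher in irradiated ASH1L-/- cells and 16 in irradiated WT cells, where 24.0% and 30.5% of all promoters were higher. Their medians, 0.127 kb in ASH1L-/- and 0.213 kb in WT, lay near the medians over all promoters, 0.174 and 0.203 kb. EGR2, a zinc-finger transcription factor, had the widest difference of the list, with 1.86 ± 0.160 kb in ASH1L-/- (adjusted p = 1.65e-05) and 1.47 ± 0.160 kb in WT cells (adjusted p = 0.000109). Of the other nuclear receptors 10 of 35 were higher in irradiated ASH1L-/- and 14 of 35 in irradiated WT cells, led by NR2F6 in ASH1L-/- (0.514 kb) and RARG, retinoic acid receptor gamma, in WT (0.929 kb). These counts depended on the scaling: with an equal total per library 1 and 3 early response genes and 3 and 4 nuclear receptors were higher in ASH1L-/- and WT cells. Over all promoters the scaling changed the calls from 3537 higher and 38 lower to 561 and 868 in ASH1L-/- cells, and from 4494 higher and 4 lower to 854 and 1797 in WT cells.

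Over the 18 libraries the promoter coverage of NR4A1 was most like that of FN3KRP (r = 0.929) and CEP43 (r = 0.928), that of NR4A2 most like FAM240C (r = 0.926) and ULBP3 (r = 0.916), and that of NR4A3 most like DMRTA2 (r = 0.937) and DDX3X (r = 0.931). Within the family r was 0.761 for NR4A1 with NR4A2, 0.230 for NR4A1 with NR4A3 and 0.382 for NR4A2 with NR4A3. All points share the depth and the number of peaks of their library, and these correlations are given as a description.

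XPC at the NR4A promoters varied widely between libraries of a group. At NR4A1 the broad peaks covered 2.78, 0 and 0.761 kb in unchallenged ASH1L-/- cells, 1.21, 0.0800 and 0.851 kb at 1 h and 0.626, 4 and 0.916 kb at 3 h, and in WT cells 2.08, 2.45, 4 and 0 kb with no UV, 0.313, 0.997 and 1.09 kb at 1 h and 2.36, 1.961 and 2.49 kb at 3 h. Irradiated minus unirradiated, NR4A1 differed by 0.0997 ± 0.778 kb in ASH1L-/- and -0.597 ± 0.710 kb in WT cells, NR4A2 by -0.169 ± 0.703 and -0.940 ± 0.641 kb, and NR4A3 by -0.964 ± 0.750 and -0.956 ± 0.685 kb (± SE, limma). None passed, with adjusted p of 0.737 or more, and the 95% interval for NR4A1 in WT cells ran from -1.99 to 0.795 kb. ASH1L-/- minus WT with no UV, the values were -0.953, -0.463 and 0.225 kb for NR4A1, NR4A2 and NR4A3, and the interactions were 0.697, 0.771 and -0.00858 kb (adjusted p = 1 each). For each of these 4 contrasts 0.00% of 18991 promoters passed in limma, while 965 and 1483 had an unadjusted p under 0.05 for UV in ASH1L-/- and WT cells, 986 for the genotypes with no UV and 292 for the interaction. With 1 library left out, the WT difference at NR4A1 was -1.31 kb without unchallenged replicate 4 and 0.025 kb without unchallenged replicate 3, and the genotype difference with no UV was -1.75 kb without ASH1L-/- replicate 1 and -0.331 kb without WT replicate 3. These XPC values thus rested on single libraries, whose peaks covered 8.86 to 35.2 Mb of all promoters.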

How the data were processed

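H3K4me3 and XPC were measured by chromatin immunoprecipitation sequencing. The series lists 61 samples, of which 37 have a peak list here. The 24 input and XPC-/- samples have none and served as controls of the lists. The authors trimmed reads with Trim Galore 0.6.5, aligned them to hg38 lacking chromosome Y (BWA 0.7.17-r1188), removed reads of mapping quality under 30, duplicates and blacklisted regions (bedtools 2.29.2, Picard, SAMtools 1.7) and called peaks per library with MACS2 2.2.7.1 at p 0.01, narrow against pooled input for H3K4me3 and broad against pooled XPC-/- immunoprecipitates for XPC. The deposited lists give peak start and end as positions (other), fold enrichment (a ratio over the control), and −log10 p and −log10 q. Of the 19 XPC lists, 17 held exactly 500000 peaks, and weaker peaks than the stated p, so XPC is given by covered length alone.

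Covered length was computed in 4 kb windows around the MANE (19016 genes) or Ensembl canonical (954 genes) start of the supplied hg38 annotation and fitted with limma 3.58.1 in R 4.3.3 (group means, trended and robust variances, windows covered in at least 3 libraries), with Benjamini-Hochberg adjustment over all windows at 0.05. Bodies ran from 2 kb past the start to the gene end for genes over 4 kb, without the promoters of other genes. Blocks joined peaks over gaps of up to 500 bp and were compared by exact permutation over 8000 arrangements. On simulated data of 14745 windows, 29% of shifts of 0.5 kb and 85% of shifts of 1 kb in the interaction were recovered, with 9 false calls. The shifts were all upward in irradiated ASH1L-/- libraries and lay in windows less covered on average than any NR4A promoter. Recovery was thus not measured for windows like those of the 3 genes. The family, the gene lists and the tests were chosen with earlier results of these data known. Genes named beside the family were the neighbours within 20 kb, up to 2 of the largest passing changes per list and direction in the UV contrasts (and, chosen after their values were seen, between genotypes at 3 h), and the promoters with the highest correlation. Alternatives were scaled lengths, stricter peaks, a narrower window, other joins, a replicate block and each library left out. Scaling set the total over all promoter windows, or over all gene bodies, equal between libraries. Replicate numbers were not taken to pair the samples. Equal numbers of peaks per library, filled gaps and XPC without the 2 shorter lists were added after seeing the data. A marker gene and a sequence stretch are not reported here.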

Additional observations from a re-analysis of the deposited data

How the results depend on the processing

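The NR4A1 gene-body difference at 3 h passed under every alternative run on gene bodies, from -49.8 to -25.6 points when each library was left out and -31.5 points with an equal number of peaks per library (adjusted p = 0.0442). Filled gaps, peaks of at least 5-fold enrichment and the narrower window, under which promoter calls were lost, were not run on gene bodies. The promoter differences at 3 h kept their calls without any 1 library, over -0.988 to -0.558 kb for NR4A1, -0.586 to -0.377 kb for NR4A2 and -0.344 to -0.195 kb for NR4A3. Calls at 3 h that were lost were NR4A1 with gaps filled (-0.512 kb), NR4A2 with peaks of at least 5-fold enrichment (-0.413 kb), an equal number of peaks (-0.413 kb) or a window of 1 kb on each side (0 kb, fully covered), and NR4A3 with scaled length (-0.253 kb), 5-fold enrichment (-2.06 kb), the 1 kb window (-0.063 kb) or filled gaps (0 kb). With 5-fold enrichment alone, the NR4A1 promoter passed for 3 h minus 1 h in ASH1L-/- cells (-2.48 kb, adjusted p = 0.00469).

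With libraries left out, NR4A3 with no UV lay between -0.234 and -0.181 kb (passing without ASH1L-/- replicate 3 at 3 h, adjusted p = 0.0245), the NR4A1 interaction between -0.796 and -0.581 kb, and 3 h minus 1 h in ASH1L-/- between -0.753 and -0.323 kb at NR4A1 and between -0.295 and -0.146 kb at NR4A3 (passing without ASH1L-/- replicate 3 at 1 h, adjusted p = 0.0439). With peaks left unjoined, the NR4A1 block passed in length (-1.71 kb) and upstream edge (1.00 kb), and NR4A3 turned to -1.51 kb in length and 1.495 kb in upstream edge (adjusted p = 0.00844 each), since the gaps in ASH1L-/- libraries then end the block. The NR4A2 downstream flank, whose value does not depend on joining, then passed too (-0.575 kb, adjusted p = 0.03), since the adjustment runs over all 15 values. Joined over 1000 bp, NR4A2 passed in length (-0.350 kb) and downstream edge (-0.338 kb, adjusted p = 0.0488 each). The block edges of NR4A1 at 5-fold enrichment were not computed, as some libraries had no such peak.

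Irradiated minus unirradiated, in ASH1L-/- and WT cells, NR4A1 was 1.94 and 2.32 kb at 5-fold enrichment and 0.330 and 0.599 kb in the 1 kb window, and NR4A2 was 0 kb in both in that window. NR4A3 was -0.285 and -0.434 kb with scaled length, and 0.391 kb in ASH1L-/- cells at 5-fold enrichment. The scaled WT value at NR4A3 comes from the library totals alone, since its window was full in every WT library.

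No XPC value of the 3 genes passed with a library left out (lowest adjusted p = 0.292), though at NR4A1 and NR4A2 the UV difference in ASH1L-/- cells changed sign (NR4A1 -0.491 kb without unchallenged replicate 2, NR4A2 0.654 kb without unchallenged replicate 1).

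All promoters called for ASH1L-/- minus WT numbered 587 with no UV (1168 scaled, 1015 at 5-fold enrichment, 297 to 1172 with a library left out), 615 at 1 h (120 at 5-fold enrichment, 268 in the 1 kb window, 347 to 761) and 2118 at 3 h (1077 without WT replicate 1 at 3 h, up to 2536). The interaction gave 156 (258 scaled, 338 at 5-fold enrichment, 44 to 382). For 3 h minus 1 h the counts were 119 in ASH1L-/- (1799 at 5-fold enrichment, 495 in the 1 kb window, 53 with gaps filled, 0 to 370) and 45 in WT cells (69 at 5-fold enrichment, 9 to 57).

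A block on the replicate number changed no call of the 3 genes (adjusted p at 3 h of 0.00636, 0.0145 and 0.00659 for NR4A1, NR4A2 and NR4A3, with 2268 promoters called). It raised the gene bodies called for ASH1L-/- minus WT from 665 to 1055 at 1 h and for the interaction from 467 to 770, and it called 25 XPC promoters for UV in WT cells and 7 between genotypes with no UV, against 0 each. Deviations of same-numbered H3K4me3 libraries correlated by -0.111 to 0.294 (median 0.0953, 18 of 45 pairs over 0.1), against a median of -0.0360 for other numbers, so not every pair was over 0.1 and the numbers were not taken to pair the samples.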
